A study of Mus musculus with 36 samples.

Results

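The genes described here are 40 interferon-stimulated genes of the mouse, out of 56980 genes in the count table. They are a list of symbols of genes that interferon is known to raise. The rule uses no measured value, but the list was chosen with earlier results of these data known. Counts of members beside the share of all genes are therefore descriptions. All 40 passed the filter on low counts, as did 25601 genes in all, so no member was set aside.

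The series holds polyA RNA sequencing of the brain of 36 mice aged 37 to 45 days. Ndufs4 knockout (KO) or wild-type (WT) animals received CP2 or vehicle by gavage on 3 successive days. Ndufs4 protein is part of respiratory complex I, mice without it serve to model Leigh syndrome, and CP2 is a small molecule that inhibits the same complex. Each title also carries the letter F or M, which with genotype and treatment gives 8 groups. KO CP2, WT CP2, KO vehicle and WT vehicle each held 5 samples with the letter F. Among samples with the letter M, KO CP2 and WT CP2 held 5 each, and KO vehicle and WT vehicle held 3 each. The labels give neither the strain, the vehicle's composition nor the kind of Ndufs4 allele, and all groups share the gavage. They call the tissue brain, while the design text names hippocampus and cortex.

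Gene counts summed to between 4.61e+07 and 8.86e+07 per library. Counts of Ndufs4 were lower in each KO group than in the matching WT group without overlap, from 27.4 to 39.1 CPM (counts scaled to a common library size) in KO and from 38.9 to 62.8 CPM in WT over all groups. Neuron markers summed to between 3597 and 5951 CPM, and choroid plexus markers to between 193 and 3438 CPM. Xist and Ddx3y followed the letter in every library, with an exception in KO CP2 M. There L291 had 47.3 CPM of Xist beside 80.8 CPM of Ddx3y. L266 of the same group stood apart from its 4 replicates in a chi-square comparison of counts (mean per gene of at least 98.6, against at most 49.4 among the others). Counts of members in each comparison that holds that group are therefore also given without both libraries, a choice made after seeing the data.

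Cells that detect foreign or misplaced nucleic acid make interferons, which bind receptors on the same and on neighbouring cells. Kinases at the receptor then activate STAT2, which joins IRF9 in a complex that binds the interferon-stimulated response element (ISRE) in the promoters of the genes described here. Many of the products bind viral RNA, block translation or mark proteins for disposal, and in the brain microglia, astrocytes, endothelium and neurons can all make them.

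Promoter sequences are shown first because the ISRE is the feature that this class of genes is known to share. Promoters were taken from RefSeq on build GRCm38.p6 (250 bases before to 50 after the gene start) and matched by symbol for 29 of the 40 genes. An ISRE was searched on both strands as GAAA, any 2 bases, GAAA. At least 1 match stood in the promoter of 15 of the 29 genes (51.7%), against 3.99% of 27025 genes with a promoter in the table. Of the 10 genes that are called below as higher in KO under CP2, 8 have a promoter in the table, and 4 of these hold a match (Ifih1, Ifit3, Ifit3b and Eif2ak2), while Ifit2, Oasl2, Xaf1 and Lgals3bp hold none. Of the 30 that are not called, 21 have a promoter and 11 hold a match. A gamma-activated site, searched as TTC, any 3 bases, GAA, stood in 8 of the 29 genes (27.6%), against 9.55% of all. A match is a description of letters, not a binding site.

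The pair Ifit3 (chr19:34583279-34583528, plus strand) and Ifit3b (chr19:34607707-34607956, plus strand) is shown because both were higher in KO than in WT under CP2. Capitals mark the ISRE matches in all sequences here, which read 5′ to 3′ on the gene's strand, and these lines hold the 250 bases before the gene start.
Ifit3: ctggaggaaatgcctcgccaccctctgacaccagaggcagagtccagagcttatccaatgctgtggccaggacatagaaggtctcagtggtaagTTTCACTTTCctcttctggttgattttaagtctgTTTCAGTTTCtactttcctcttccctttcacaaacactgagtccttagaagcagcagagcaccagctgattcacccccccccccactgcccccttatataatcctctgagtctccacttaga
Ifit3b: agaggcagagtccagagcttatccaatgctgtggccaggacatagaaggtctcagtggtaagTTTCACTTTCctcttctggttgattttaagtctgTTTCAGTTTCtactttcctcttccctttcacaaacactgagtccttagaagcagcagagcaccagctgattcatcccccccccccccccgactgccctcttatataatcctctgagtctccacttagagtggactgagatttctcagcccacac
Both promoters hold 2 matches, at 156 and 122 bases before the start of Ifit3 and at 188 and 154 bases before the start of Ifit3b. At a shift of 32 bases and without gaps, 75.0% of 268 aligned bases of the 300-base windows were identical. A run of C before the start differs in length between the promoters. The bases after it were therefore compared out of step, and the percentage understates their likeness.

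Isg15 (chr4:156200819-156201068, minus strand) is shown because its promoter holds 3 overlapping matches, from 78 to 66 bases before the start, while its counts were not called in any comparison. Lgals3bp (chr11:118401960-118402209, minus strand), the member with the smallest adjusted p, holds no match, and no capitals are marked. A search made after its letters were seen, for GAAA, any 3 bases, GAAA on both strands, found that spacing 17 bases before its start, in 8 of the 29 genes (27.6%) and in 3.17% of all.
Isg15: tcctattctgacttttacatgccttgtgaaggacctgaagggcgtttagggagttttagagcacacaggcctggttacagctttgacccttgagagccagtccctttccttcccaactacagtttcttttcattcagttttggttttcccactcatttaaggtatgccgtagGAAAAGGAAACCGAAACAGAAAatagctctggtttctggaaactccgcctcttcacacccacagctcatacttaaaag
Lgals3bp: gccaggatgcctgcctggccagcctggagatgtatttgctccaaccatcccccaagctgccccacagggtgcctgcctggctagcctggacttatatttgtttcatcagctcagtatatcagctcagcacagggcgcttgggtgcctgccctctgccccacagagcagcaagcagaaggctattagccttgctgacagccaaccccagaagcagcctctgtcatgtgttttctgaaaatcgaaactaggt
Eif2ak2 (chr17:78882544-78882672, minus strand), shown from 100 bases before the gene start, holds its match 18 bases after it.
Eif2ak2: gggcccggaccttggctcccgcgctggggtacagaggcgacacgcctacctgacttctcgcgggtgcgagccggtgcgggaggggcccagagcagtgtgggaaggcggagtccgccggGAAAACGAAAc

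Levels between genes were compared per length, as mean CPM per kb of exon in WT vehicle F. Ifi27, an interferon-induced membrane protein, and Ifitm3, which blocks virus entry at membranes, were highest, at 17.9 and 16.6 CPM per kb. Lgals3bp followed at 7.31, Cmpk2 at 5.86, Bst2 at 5.32 and Ifit3 at 5.002 CPM per kb. The lowest members were Zbp1 at 0.0369 and Mx1 at 0.0415 CPM per kb, and Mx1 and Oas2 were at 0 in 1 library each. In WT vehicle M the order at the top was the same for the first 3, while Cmpk2 (5.85), Ifit3 (5.38) and Stat2 (4.19) stood above Bst2 (3.92).

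**Figure D1:**
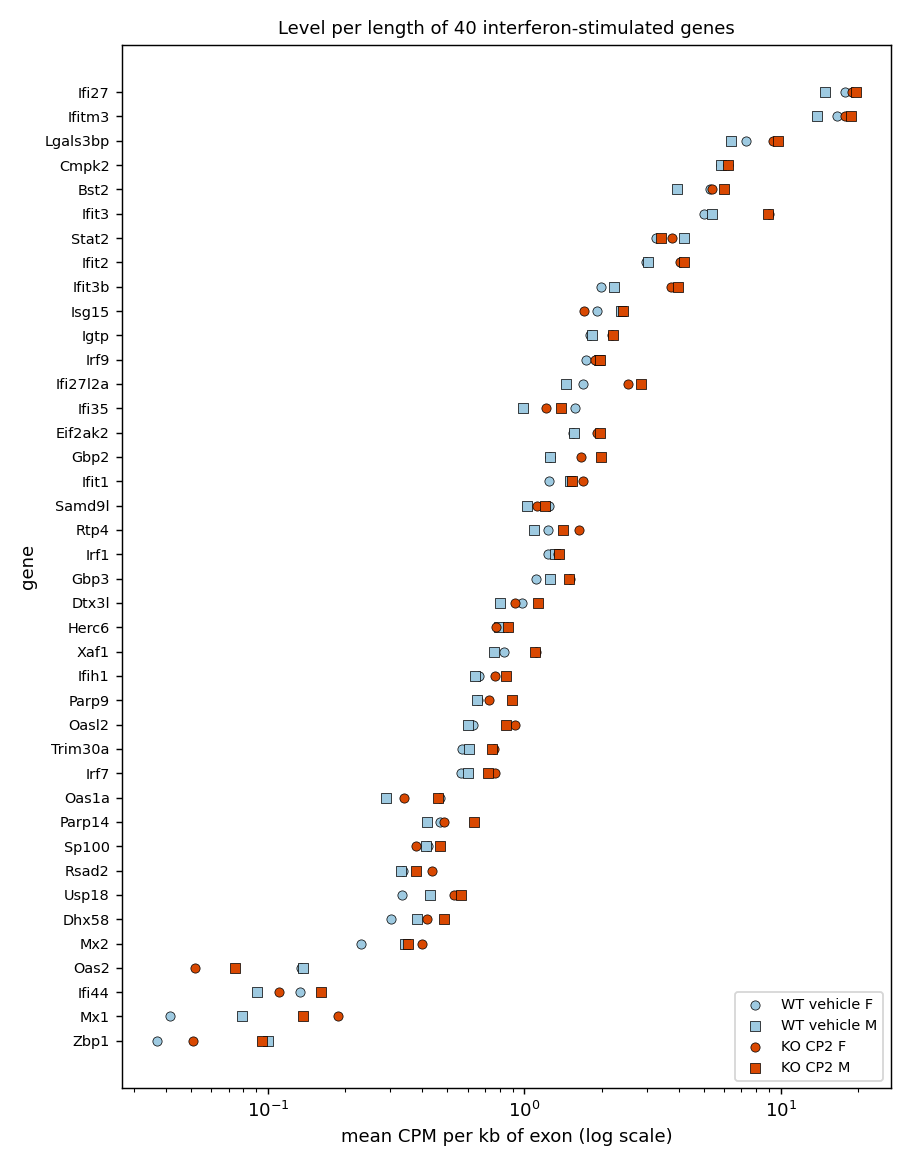
Mean CPM per kb of exon (log axis) of the 40 genes in WT vehicle (blue) and KO CP2 (orange), with circles for F and squares for M. Levels run from 0.0369 (Zbp1) to 17.9 (Ifi27) in WT vehicle F, and the circle and square of Ifit3 in KO CP2 (9.01 and 8.95) stand to the right of those in WT vehicle (5.002 and 5.38).

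KO was compared with WT under CP2 to ask how the knockout differs when complex I is also inhibited. In the average of F and M, 10 of the 40 genes were higher in KO and 0 lower at an adjusted p under 0.05, while 5.54% of all tested genes were higher and 6.07% lower. The 10 were Lgals3bp, Ifit3, Ifit2, Ifit3b, Eif2ak2, Rtp4, Ifih1, Oasl2, Ifi27 and Xaf1. DESeq2 called 14 members, and 3675 of all genes against 2972 by edgeR. At an unadjusted p under 0.05, 23 members were higher and 0 lower, beside 24.9% of all genes in either direction. The log2 fold change was positive in 36 members, with a median of 0.41 against 0.01 over all genes tested. In 3 members (Ifit3, Ifit2 and Ifit3b) the KO samples lay above all WT samples within F and within M, against 0.293% of all genes that did so and 0.484% in the other direction. Without L266 and L291, 10 members were called and the median was 0.42.

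**Figure D2:**
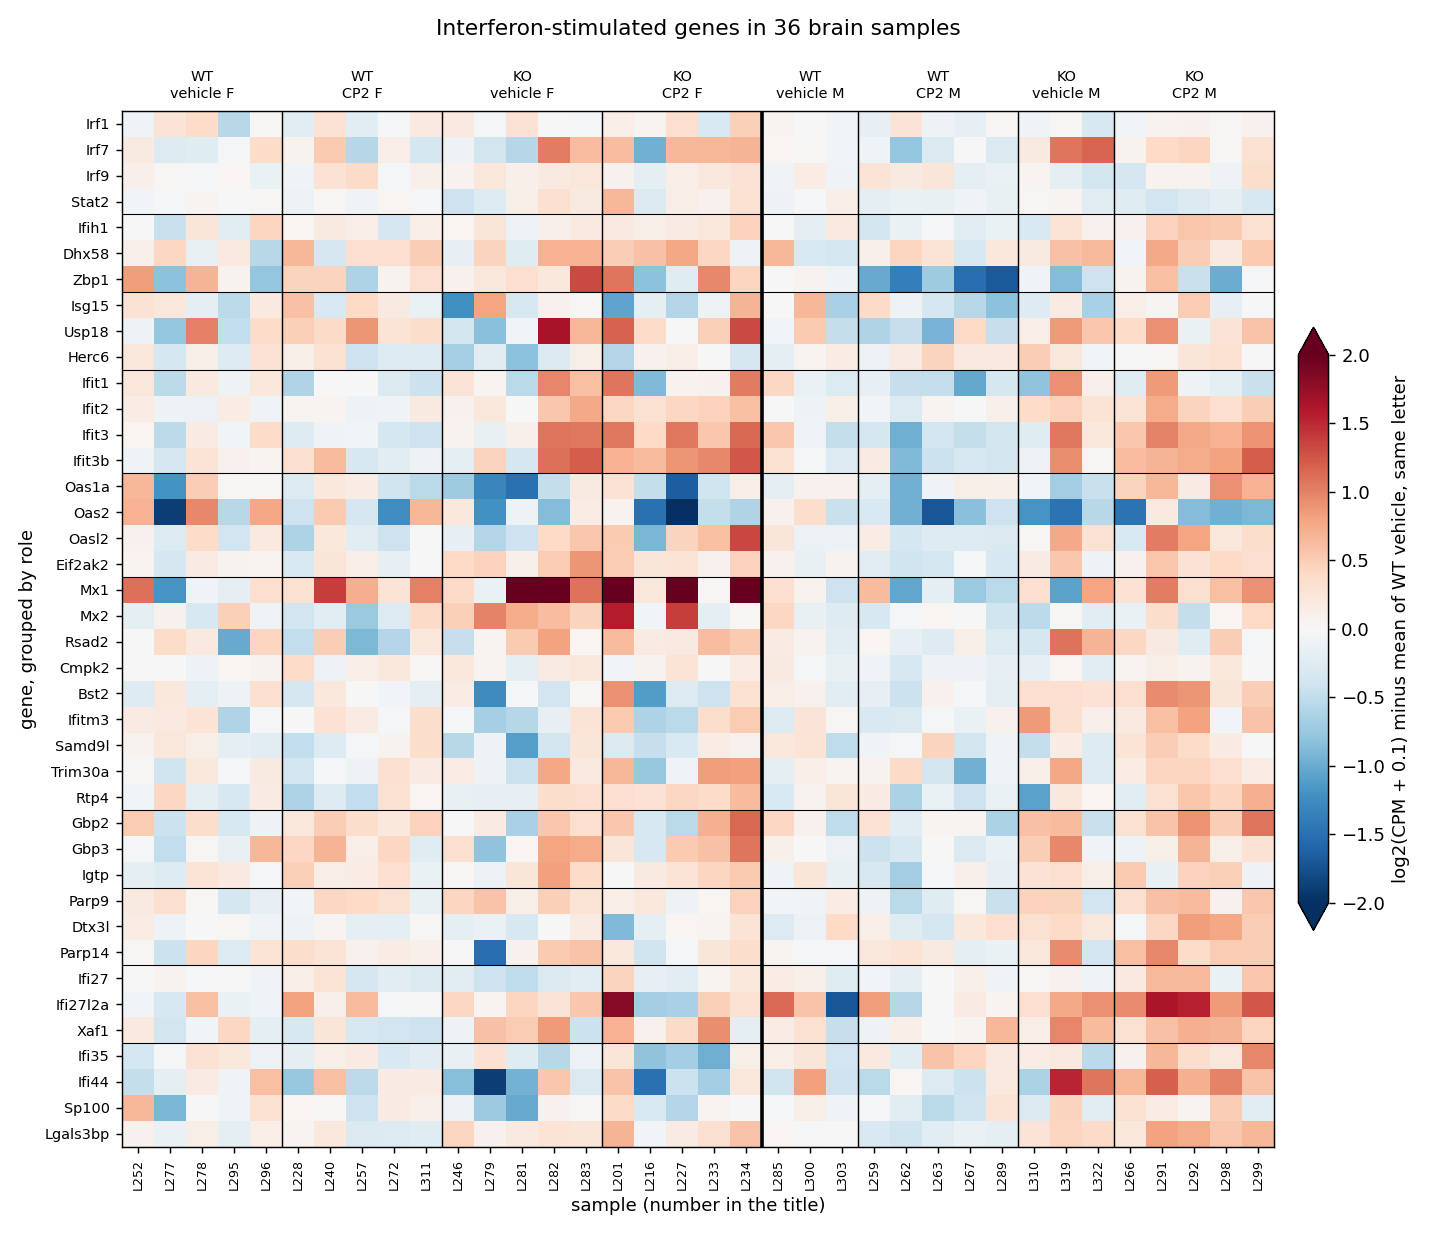
log2(CPM + 0.1) of the 40 genes (rows, grouped by role) in 36 samples (columns, by group), minus the mean of WT vehicle of the same letter; colours stop at 2 and -2. Red cells gather in the KO CP2 columns in the Ifit2, Ifit3, Ifit3b and Lgals3bp rows, while low genes such as Mx1, Oas2 and Zbp1 scatter within each group.

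The IFIT proteins bind viral RNA that lacks the host's cap marks. In these and all later lists, samples stand in ascending order of the number in their titles. Of the 4 IFIT genes, 3 were higher in KO than in WT under CP2 and Ifit1 did not pass the test. Ifit3 had 17.97, 11.3, 17.9, 12.5 and 18.98 CPM in KO CP2 F and 7.15, 8.10, 8.26, 6.72 and 6.40 CPM in WT CP2 F. In M it had 13.1, 18.1, 15.3, 14.6 and 16.9 CPM in KO and 6.997, 4.54, 6.90, 6.45 and 6.98 CPM in WT. KO and WT samples did not overlap with either letter, and the lowest WT sample in M was L262. The difference was called (log2 fold change 1.20, SE 0.17, adjusted p = 1.69e-05), in F (log2 fold change 1.10, SE 0.24, adjusted p = 0.0123) as in M (log2 fold change 1.30, SE 0.24, adjusted p = 0.000533).

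Ifit3b is a near copy of Ifit3: 51.2% of the 50-base windows of the Ifit3 transcript also occur in Ifit3b, so how reads were divided between the pair depends on the authors' counting. It had 6.48, 6.20, 7.35, 7.75 and 9.47 CPM in KO CP2 F and 4.96, 6.20, 3.14, 3.38 and 3.69 CPM in WT CP2 F. In M the values were 6.82, 7.16, 7.51, 7.77 and 10.4 CPM in KO and 4.99, 2.36, 3.25, 3.54 and 3.39 CPM in WT. In F the lowest KO sample (L216) and the highest WT sample (L240) differed by less than the rounding shown, and in M the groups stood apart. The average was called (log2 fold change 0.99, SE 0.18, adjusted p = 0.000183). The difference in M was called (log2 fold change 1.18, SE 0.25, adjusted p = 0.00168), while that in F was not (log2 fold change 0.80, SE 0.25, adjusted p = 0.0801).

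Ifit2 had 15.7, 14.4, 15.6, 16.1 and 17.7 CPM in KO CP2 F and 12.1, 12.2, 10.9, 11.04 and 13.3 CPM in WT CP2 F. In M it had 14.3, 19.8, 16.2, 15.04 and 16.8 CPM in KO and 11.5, 9.77, 12.3, 11.9 and 12.8 CPM in WT. Every KO sample lay above every WT sample of its letter, with KO L291 the highest of M and KO L234 of F. The difference was small but called (log2 fold change 0.46, SE 0.080, adjusted p = 0.000144). Ifit1 had 6.93, 1.72, 3.44, 3.46 and 6.84 CPM in KO CP2 F and 2.11, 3.26, 3.24, 2.66 and 2.39 CPM in WT CP2 F, and KO sample L216 lay below all 5 WT samples. In M it had 3.27, 7.10, 3.65, 3.43 and 2.85 CPM in KO and 3.46, 2.81, 2.79, 1.86 and 3.04 CPM in WT, with L291 far above the rest. The groups overlapped and the average was not called (log2 fold change 0.63, SE 0.23, adjusted p = 0.0662); without L216 the adjusted p was 0.0192, and DESeq2 gave 0.0248.

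Lgals3bp encodes a secreted glycoprotein that binds galectins. It had 33.4, 19.97, 23.1, 25.8 and 30.6 CPM in KO CP2 F and 21.5, 24.1, 16.9, 17.1 and 17.6 CPM in WT CP2 F. In M it had 21.1, 31.7, 30.6, 26.4 and 29.04 CPM in KO and 14.7, 13.8, 15.7, 16.5 and 16.00 CPM in WT. The groups stood apart in M, and in F KO L216 lay below WT L228 and L240, and KO L227 below WT L240. Lgals3bp had the smallest adjusted p of the 40 genes (log2 fold change 0.65, SE 0.081, adjusted p = 1.54e-06). It was called in M (log2 fold change 0.86, SE 0.12, adjusted p = 5.03e-06) and in F (log2 fold change 0.45, SE 0.11, adjusted p = 0.0279). The call in F was lost on leaving out KO L201 (adjusted p = 0.131), KO L234 (0.0524), WT L257 (0.105), WT L272 (0.0867) or WT L311 (0.0603). It was also lost in a fit of only the groups compared (0.18) and with a covariate, the title number (log2 fold change 0.36, adjusted p = 0.199) or the outside share (0.41, 0.0688). The outside share is the percentage of the count table that lay outside annotated genes.

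**Figure D3:**
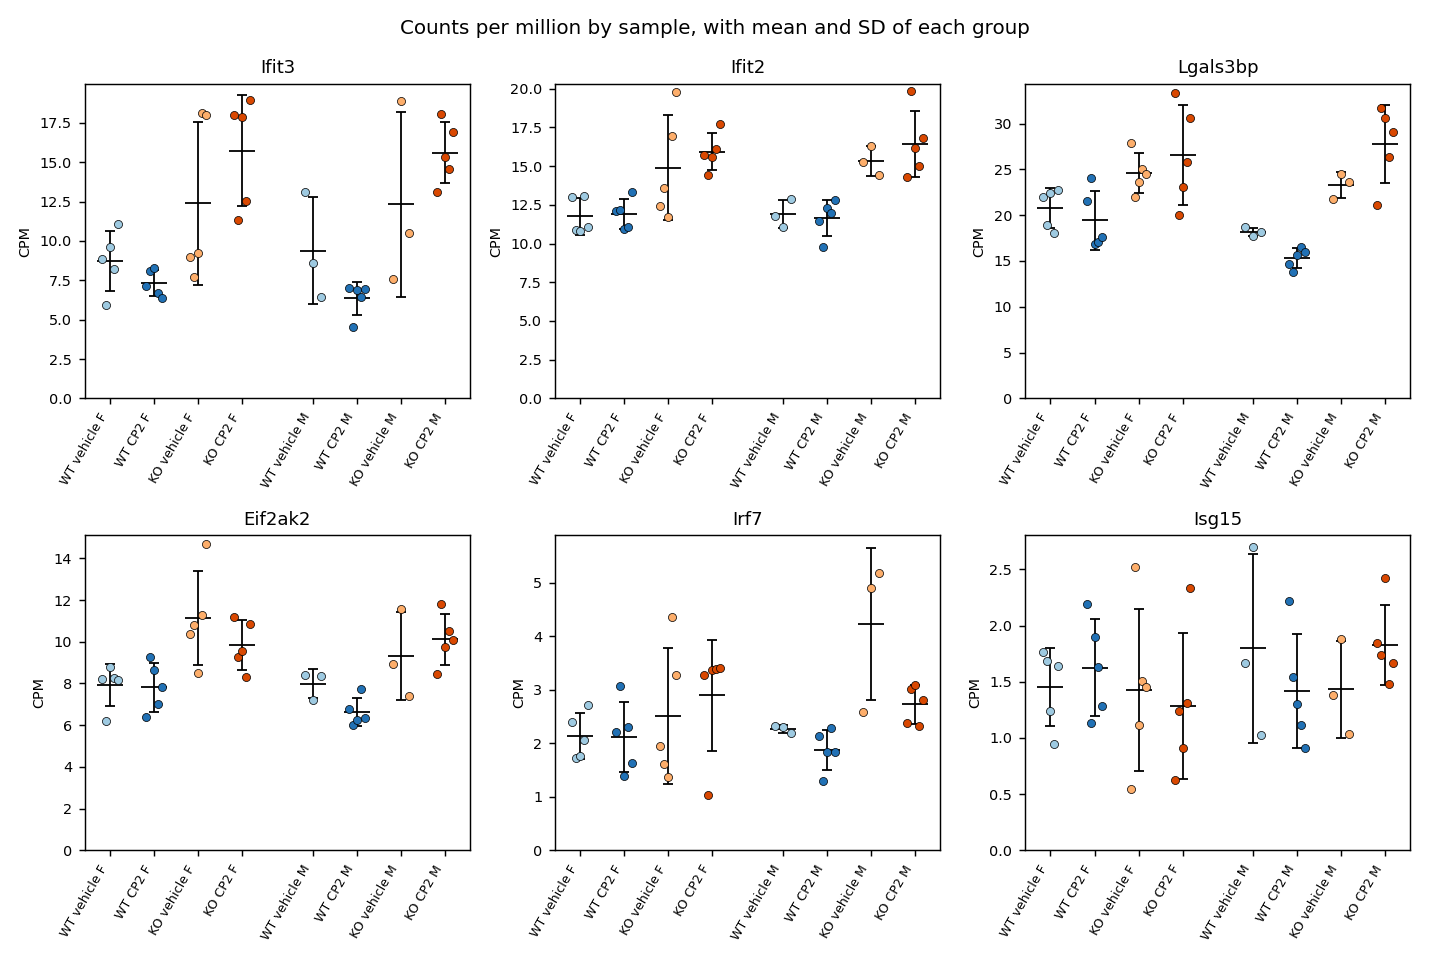
CPM of 6 genes in each of 36 samples (points), with the mean and SD of each group (black), for F at the left and M at the right of each panel. Ifit3 in KO CP2 M runs from 13.1 to 18.1 CPM above WT CP2 M at 4.54 to 6.997 CPM, while the groups of Isg15 overlap throughout.

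The kinase PKR, encoded by Eif2ak2, halts translation when it binds double-stranded RNA. Eif2ak2 had 11.2, 9.28, 9.54, 8.33 and 10.9 CPM in KO CP2 F and 6.39, 9.28, 8.63, 7.01 and 7.83 CPM in WT CP2 F. In M it had 8.43, 11.8, 9.76, 10.5 and 10.1 CPM in KO and 6.77, 6.01, 6.26, 7.73 and 6.37 CPM in WT. The groups overlapped in F and stood apart in M, and the average was higher in KO (log2 fold change 0.47, SE 0.096, adjusted p = 0.000822).

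Oasl2 belongs to the OAS family, of which active members make a messenger that activates RNase L. It had 5.68, 2.05, 5.37, 6.01 and 10.1 CPM in KO CP2 F and 2.53, 4.56, 3.36, 2.91 and 3.96 CPM in WT CP2 F. In M it had 3.07, 7.83, 6.68, 4.47 and 4.88 CPM in KO and 4.25, 2.95, 3.18, 3.12 and 3.10 CPM in WT. KO L216 lay below all WT samples of F, KO L266 lay below 4 of the 5 WT samples of M, and the average was called (log2 fold change 0.73, SE 0.19, adjusted p = 0.0107). With the microglia marker level described below as a covariate it was not (log2 fold change 0.54, adjusted p = 0.0927). Oas1a (0.36, adjusted p = 0.487) and Oas2 (-0.44, adjusted p = 0.609) did not pass the test. Oas1a shares 57.6% of its 50-base windows with Oas1g, so its counts are uncertain too.

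Among the sensors, Ifih1 encodes MDA5, which detects long double-stranded RNA. It had 6.08, 5.79, 5.96, 6.18 and 7.32 CPM in KO CP2 F and 5.46, 6.02, 5.81, 4.19 and 5.85 CPM in WT CP2 F. In M it had 5.52, 7.17, 7.74, 7.56 and 6.44 CPM in KO and 4.02, 4.73, 5.09, 4.46 and 4.72 CPM in WT. The M groups did not overlap and the F groups did, with L234 the highest of KO CP2 F and L272 the lowest of WT CP2 F. The average was called (log2 fold change 0.39, SE 0.10, adjusted p = 0.0106). The sensors Dhx58 (0.20, adjusted p = 0.581) and Zbp1 (1.10, adjusted p = 0.153) were not called, and Zbp1 reached 0.584 CPM at most.

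Of the 9 antiviral effectors, Rtp4 was called. It had 3.30, 3.19, 3.46, 3.37 and 4.08 CPM in KO CP2 F and 1.65, 2.15, 1.81, 3.22 and 2.66 CPM in WT CP2 F. In M it had 1.96, 2.83, 3.39, 3.10 and 3.80 CPM in KO and 2.58, 1.44, 2.08, 1.68 and 2.07 CPM in WT. In F only WT L272 reached into the KO range, in M the groups overlapped, and the average was higher (log2 fold change 0.61, SE 0.16, adjusted p = 0.00924). The other 8 had positive log2 fold changes and were not called, among them the dynamin-like GTPases Mx1 (1.22, adjusted p = 0.0855) and Mx2 (0.63, adjusted p = 0.0578), the virion tether Bst2 (0.43, 0.0951) and viperin, encoded by Rsad2 (0.46, 0.15). Mx1 ranged from 0 to 1.12 CPM over the 36 samples.

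The Ifi27 family and Xaf1, a proapoptotic factor, held 2 called genes of 3. Ifi27 had 35.8, 23.4, 22.5, 27.3 and 30.3 CPM in KO CP2 F and 28.8, 31.7, 20.8, 22.4 and 21.4 CPM in WT CP2 F. In M it had 24.7, 33.9, 33.8, 19.7 and 31.6 CPM in KO and 20.9, 19.2, 21.7, 23.2 and 20.4 CPM in WT, where L298 alone of the KO samples lay within the WT range. The F groups overlapped broadly, and the average was called (log2 fold change 0.30, SE 0.089, adjusted p = 0.0215). It was no longer called without KO L201 (adjusted p = 0.0559), WT L257 (0.0504) or KO L292 (0.0512), in a fit of only the groups compared (0.0608), or with the microglia marker level as a covariate (log2 fold change 0.24, adjusted p = 0.105). Xaf1 was called (log2 fold change 0.53, SE 0.16, adjusted p = 0.0245), but not without KO L233 (adjusted p = 0.0602). Ifi27l2a was not called (log2 fold change 0.75, SE 0.31, adjusted p = 0.11).

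Of the 4 transcription factors of the response edgeR called 0, with 1 (Irf7) at an unadjusted p under 0.05, which DESeq2 did not call either. Irf7 amplifies interferon production and had 3.28, 1.03, 3.37, 3.39 and 3.40 CPM in KO CP2 F and 2.21, 3.07, 1.38, 2.31 and 1.62 CPM in WT CP2 F. In M it had 2.38, 3.01, 3.10, 2.32 and 2.82 CPM in KO and 2.14, 1.29, 1.84, 2.28 and 1.83 CPM in WT. KO exceeded WT without overlap in M, while in F KO L216 lay below all others, and the average was not called (log2 fold change 0.50, SE 0.20, adjusted p = 0.101); without L216 the adjusted p was 0.0243. Stat2, a subunit of the factor that binds the ISRE, had 30.7, 15.8, 21.2, 20.4 and 23.9 CPM in KO CP2 F and 17.8, 19.7, 18.4, 19.7 and 19.1 CPM in WT CP2 F. In M it had 20.9, 18.9, 20.3, 21.5 and 19.8 CPM in KO and 21.7, 22.6, 22.3, 23.4 and 22.2 CPM in WT. Every KO sample of M lay below every WT sample, while in F KO L201 stood highest and L216 lowest of all 10, and the average was not called (log2 fold change 0.05, SE 0.080, adjusted p = 0.781). Irf9 (-0.04, adjusted p = 0.813) and Irf1 (0.11, adjusted p = 0.611) were not called.

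Isg15 encodes a ubiquitin-like protein that is joined to others during the response. It had 0.629, 1.24, 0.907, 1.31 and 2.34 CPM in KO CP2 F and 2.19, 1.13, 1.90, 1.63 and 1.28 CPM in WT CP2 F. In M it had 1.84, 1.73, 2.42, 1.48 and 1.66 CPM in KO and 2.22, 1.55, 1.30, 1.11 and 0.906 CPM in WT. The groups overlapped with both letters and the average was not called (log2 fold change 0.02, SE 0.23, adjusted p = 0.978). Of the other genes of that system, the deconjugating protease Usp18 (0.56, adjusted p = 0.191) and the ligase Herc6 (-0.05, adjusted p = 0.848) were not called either.

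The remaining members were not called in the average. The GTPases Gbp2, Gbp3 and Igtp, which act on vacuoles that hold pathogens, had log2 fold changes of 0.43, 0.34 and 0.28. Parp9, Dtx3l and Parp14, which act in ADP-ribosylation and ubiquitin transfer, had 0.34, 0.24 and 0.21. Ifi35, Ifi44 and Sp100 had -0.01, 0.47 and 0.14, and Cmpk2, Ifitm3, Samd9l and Trim30a had 0.10, 0.28, 0.09 and 0.43. Their adjusted p ran from 0.075 (Parp9) to 0.982 (Ifi35).

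Within F under CP2, 3 members were higher in KO (Ifit3, Lgals3bp and Ifit2) and 0 lower, with 0.715% of all genes higher and 1.28% lower. At an unadjusted p under 0.05, 12 members were higher and 0 lower, beside 15.7% of all genes in either direction. The median log2 fold change was 0.17, and 0.10 without KO L234. The samples did not overlap in 3 members (Ifit3, Ifit2 and Ifit3b), all higher, against 1.25% of all genes higher and 1.77% lower. Leaving out KO L201, WT L257 or WT L272 left 1 member called, and leaving out KO L216 gave 5. Ifit3 was called in 10 of 10 such fits. Ifit2 was called in 2, without KO L216 and without WT L311, and had an adjusted p of up to 0.122 (without WT L257) in the others. It was not called in a fit of only the groups compared (0.093) or without the filter on low counts (0.0603).

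Within M under CP2, 9 members were higher in KO and 0 lower, with 4.75% of all genes higher and 5.24% lower. Beside Lgals3bp, Ifit3, Ifit3b, Eif2ak2, Ifit2, Ifih1 and Ifi27, these were Parp9 (log2 fold change 0.72, SE 0.18, adjusted p = 0.0067) and Bst2 (log2 fold change 0.76, SE 0.24, adjusted p = 0.0385). The median log2 fold change was 0.51, and 22 members were higher and 0 lower at an unadjusted p under 0.05, beside 23.6% of all genes in either direction. The KO samples lay above all WT samples in 15 members and below in Stat2, against 4.76% and 6.33% of all genes. The 15 were Irf7, Ifih1, Ifit2, Ifit3, Ifit3b, Oas1a, Eif2ak2, Cmpk2, Bst2, Gbp2, Parp9, Parp14, Ifi27l2a, Ifi44 and Lgals3bp. Without L266 and L291, 8 members were called, 7 of them among the 9, while Bst2 (adjusted p = 0.132) and Ifi27 (0.0717) were not. The remaining call was Dtx3l (adjusted p = 0.0274). In these fewer samples, 19 members lay above all WT samples and Stat2 below, against 7.99% and 9.05% of all genes. Ifi27 also lost its call without KO L291 (0.0655), KO L292 (0.069), KO L299 (0.0544) or WT L262 (0.0617). Bst2 lost its call without KO L291, L292 or L299 or WT L259, L262, L263 or L289, with an adjusted p of up to 0.117.

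The difference of the KO effect between F and M was tested directly. edgeR called 0 members for it under CP2, where the difference F minus M was above 0 in 0.598% of all genes and below 0 in 0.223%, and DESeq2 called 0. At an unadjusted p under 0.05, 1 member (Stat2) was above 0 and 6 were below (Parp9, Lgals3bp, Cmpk2, Ifi44, Ifitm3 and Dtx3l), beside 14.2% of all genes. The smallest adjusted p was that of Parp9 (log2 difference -0.76, adjusted p = 0.125), followed by Lgals3bp (-0.41, 0.222). With vehicle edgeR and DESeq2 called 0 members, beside 0.00391% and 0.0977% of all genes, and 1 member (Herc6, below 0) had an unadjusted p under 0.05 (8.37% of all genes). For the CP2 effect in KO both called 0 members, beside 0.348% and 0.344% of all genes, and 2 members (Stat2 and Ifi35) had an unadjusted p under 0.05 (14.7% of all genes). Without L266 and L291 edgeR called 0 members for either difference that holds KO CP2 M.

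With vehicle, KO was compared with WT without the inhibitor. Ifit2 (log2 fold change 0.36, SE 0.093, adjusted p = 0.0152), Lgals3bp (log2 fold change 0.30, SE 0.093, adjusted p = 0.0435) and Eif2ak2 (log2 fold change 0.35, SE 0.11, adjusted p = 0.0439) were higher in KO and 0 members lower, with 2.87% of all genes higher and 3.8% lower. At an unadjusted p under 0.05, 8 members were higher and 0 lower, beside 21.6% of all genes in either direction. With both directions counted, the members' share was close to that of all genes, while all 8 members were higher. Ifit2 had 12.5, 13.6, 11.7, 16.97 and 19.8 CPM in KO vehicle F and 13.03, 10.9, 10.8, 13.04 and 11.05 CPM in WT vehicle F. In M it had 15.3, 16.3 and 14.4 CPM in KO and 11.8, 11.04 and 12.9 CPM in WT. The M groups stood apart and the F groups overlapped, with KO L282 and L283 above the rest. Ifit2 lost its call without WT L300 (adjusted p = 0.052).

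Lgals3bp had 27.8, 21.98, 23.6, 25.1 and 24.5 CPM in KO vehicle F and 21.98, 18.9, 22.4, 18.01 and 22.7 CPM in WT vehicle F. In M it had 21.8, 24.5 and 23.7 CPM in KO and 18.7, 17.8 and 18.2 CPM in WT. The M groups did not overlap, and in F KO L279 lay within the WT range. Its call was kept in 6 of 16 fits that left out 1 library, and was lost without KO L246, L281, L282, L319 or L322 and without WT L277, L295, L285, L300 or L303 (adjusted p at most 0.106 in these fits). It was also lost without the filter on low counts (0.0556) and with the outside share as a covariate (log2 fold change 0.24, adjusted p = 0.307).

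Eif2ak2 had 10.4, 10.8, 8.48, 11.3 and 14.7 CPM in KO vehicle F and 8.20, 6.20, 8.80, 8.24 and 8.18 CPM in WT vehicle F. In M it had 8.93, 11.6 and 7.41 CPM in KO and 8.42, 7.18 and 8.37 CPM in WT. The groups overlapped with both letters, by KO L281 in F. The call was kept in 5 of 16 fits, and was lost without KO L282, L283, L310 or L319 and without WT L252, L277, L295, L296, L285, L300 or L303 (adjusted p at most 0.194). It was also lost without the filter on low counts (0.0762), in a fit of only the groups compared (0.0838), and with the title number (0.0597) or the outside share (0.0781) as a covariate.

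Ifit3 reached 18.1 and 17.97 CPM in KO vehicle F samples L282 and L283, and 8.83, 5.93, 9.60, 8.24 and 11.05 CPM in WT vehicle F. The other 3 KO vehicle F samples had 8.98, 7.69 and 9.22 CPM, within the WT range, and the KO vehicle M samples had 7.60, 18.9 and 10.5 CPM beside 13.1, 8.58 and 6.45 CPM in WT. KO L282, L283 and L319 were thus high while the other 5 KO samples lay within the WT range, and the average was not called (log2 fold change 0.45, SE 0.19, adjusted p = 0.162).

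Within F with vehicle, Eif2ak2 alone was called (log2 fold change 0.49, SE 0.14, adjusted p = 0.0279) and 0 members were lower, beside 2.02% of all genes higher and 2.94% lower. There 8 members were higher and 3 lower (Ifi27, Herc6 and Oas1a) at an unadjusted p under 0.05, beside 20.3% of all genes in either direction. Eif2ak2 was no longer called without KO L283 (adjusted p = 0.0751), WT L277 (0.0743) or WT L296 (0.0529), in a fit of only the groups compared (0.0841), or with the outside share as a covariate (0.0621). Within M, with 3 samples a group, edgeR and DESeq2 called 0 members, beside 0.227% and 0.289% of all genes by edgeR. At an unadjusted p under 0.05, 4 members were higher (Ifit2, Irf7, Lgals3bp and Xaf1), beside 12.2% of all genes in either direction. The KO samples lay above all WT samples in 4 members (Irf7, Ifit2, Bst2 and Lgals3bp) and below in Oas2, against 10.5% and 10.3% of all genes. Irf7 had 2.59, 4.91 and 5.19 CPM in KO vehicle M and 2.33, 2.30 and 2.19 CPM in WT vehicle M.

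The comparisons with and without CP2 share no samples. The log2 fold change was positive in both in 27 members, negative in both in 4 and of opposite sign in 9, and 32.3% of all genes were positive in both. The median with vehicle was 0.19, and 0.0755 without KO vehicle M sample L319, against 0.41 under CP2. The largest opposite values were those of Oas1a (0.36 under CP2 and -0.67 with vehicle), which was called in neither.

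**Figure D4:**
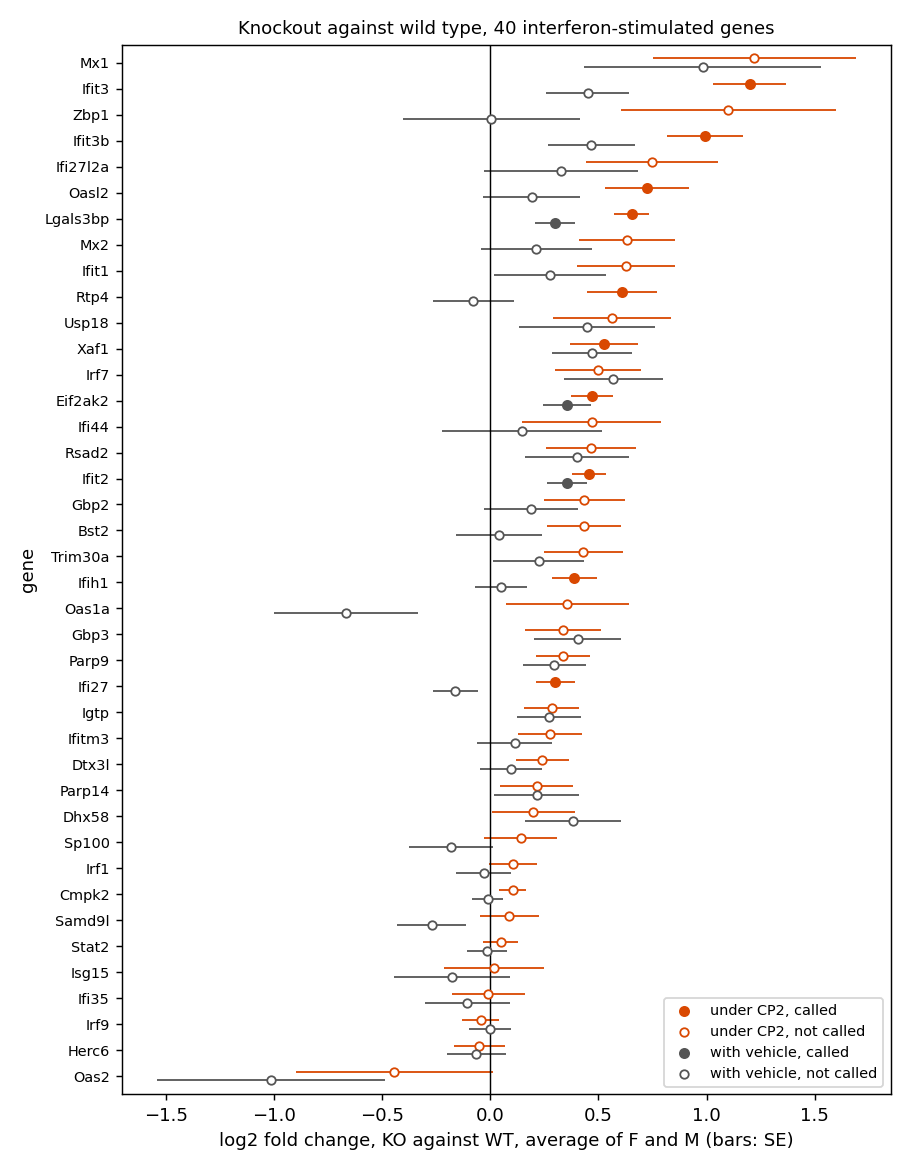
log2 fold change of KO against WT, average of F and M (points, with SE as bars), for the 40 genes under CP2 (orange) and with vehicle (grey), with filled points for genes at an adjusted p under 0.05. All 10 filled orange points lie to the right of 0, from 0.30 (Ifi27) to 1.20 (Ifit3), and the 3 filled grey points are Ifit2, Lgals3bp and Eif2ak2.

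Whether the KO effect itself depends on CP2 was tested as an interaction. edgeR called 0 members, beside 0.316% and 0.398% of all genes, and DESeq2 called 0. At an unadjusted p under 0.05, 6 members were above 0 and 0 below, beside 14.6% of all genes. The smallest adjusted p were those of Ifi27 (log2 difference 0.46, adjusted p = 0.0881), Ifit3 (0.75, 0.148) and Lgals3bp (0.35, 0.152). So the larger number of members called under CP2 than with vehicle is not shown to be a difference between the treatments. Without KO L298, or without WT L303, 1 member was called, and without both L266 and L291 edgeR called 0, with 7 members at an unadjusted p under 0.05.

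CP2 was also compared with vehicle within each genotype. In KO, in the average of F and M, Ifi27 was higher (log2 fold change 0.40, SE 0.097, adjusted p = 0.0136) and 0 members were lower, beside 2.08% and 1.84% of all genes. In all, 7 members were higher and 0 lower at an unadjusted p under 0.05, beside 18.1% of all genes in either direction. With vehicle Ifi27 had these levels. In F, KO vehicle had 22.5, 19.8, 18.4, 21.5 and 22.6 CPM and WT vehicle 26.4, 27.5, 25.9, 26.4 and 24.98 CPM. In M, KO vehicle had 22.05, 23.03 and 20.4 CPM and WT vehicle 23.99, 23.1 and 18.3 CPM. With vehicle all KO samples of F thus lay below the WT samples, as in 1 of 40 members and 2.87% of all genes. Under CP2 the genotypes overlapped in F, and edgeR did not call the vehicle difference in F (log2 fold change -0.32, SE 0.13, adjusted p = 0.125). The call for CP2 in KO was lost without KO L322 (adjusted p = 0.0701) and in a fit of only the groups compared (0.0615), and was kept without L266 and L291 (0.0349). It was also lost with the outside share (log2 fold change 0.41, adjusted p = 0.37), the title number (0.23, 0.47) or the microglia marker level (0.29, 0.606) as a covariate.

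Markers moved in the same comparison. Of 10 microglia markers, 5 were called higher and 10 had an unadjusted p under 0.05, all higher. Their summed level in KO was 353 to 488 CPM with CP2 and 280.0 to 392 CPM with vehicle in F, and 381 to 501 CPM with CP2 and 320.1 to 411 CPM with vehicle in M. Of 6 oligodendrocyte markers, 4 were called higher and 6 had an unadjusted p under 0.05, all higher. Their summed level in KO was 10180 to 13870 CPM with CP2 and 7818 to 11580 CPM with vehicle in F, and 8210 to 15120 CPM with CP2 and 7828 to 9221 CPM with vehicle in M. The part of the oligodendrocyte markers in the rise of Ifi27 was not tested.

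Within F of KO, edgeR and DESeq2 called 0 members, beside 0.0547% and 0.0312% of all genes, and 1 member (Ifi27) had an unadjusted p under 0.05, beside 11% of all genes. Within M of KO both called 0, beside 2.36% and 2.74% of all genes, and 5 members had an unadjusted p under 0.05 (Ifi27, Oas1a, Rtp4, Ifih1 and Cmpk2), all higher, beside 19.4% of all genes. Without L266 and L291 edgeR called 0 members within M of KO as well, with 5 at an unadjusted p under 0.05. In WT both called 0 members, beside 0% and 0% of all genes, and 1 member was lower at an unadjusted p under 0.05 (Ifit3, log2 fold change -0.41), beside 4.03% of all genes. In WT, 9 of the 40 members had a positive log2 fold change. The members' mean log2 CPM, averaged by group, was 1.644 with vehicle and 1.685 with CP2 in WT F. In WT M it was 1.682 and 1.476. The KO values were 1.736 and 1.851 in F, and 1.822 and 2.03 in M. The difference between KO and WT under CP2 in M thus holds a lower WT level as well as a higher KO level. Whether CP2 changed this mean was not tested.

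Other genes of the pathway were read from lists. Of the 11 interferon genes listed, 0 passed the filter on low counts: Ifnb1 had 2 counts over all 36 libraries, Ifng 18, Ifnk 40, and 6 were listed at 0. Their levels could not be compared at this depth. Of 14 genes of receptors and receptor signalling, edgeR called 0 in the KO against WT average under CP2, with 4 higher and 1 lower at an unadjusted p under 0.05, beside a median log2 fold change of 0.05. Of 20 genes of nucleic acid sensing and induction, 7 were higher and 2 lower. They included Unc93b1, which delivers Toll-like receptors to endosomes (log2 fold change 0.43, SE 0.083, adjusted p = 0.000465), Rigi, an RNA sensor (log2 fold change 0.47, SE 0.092, adjusted p = 0.000519), and Irf3, which induces interferon and was lower (log2 fold change -0.43, SE 0.087, adjusted p = 0.000879). Of 10 tested brakes on sensing, Rnaseh2b was higher (log2 fold change 0.31, SE 0.079, adjusted p = 0.00719), while the RNA editor Adar (log2 fold change -0.21, SE 0.042, adjusted p = 0.000589) and Pnpt1 (log2 fold change -0.24, SE 0.075, adjusted p = 0.0271) were lower. Of 73 tested further interferon-stimulated genes, 12 were higher and 1 (Helz2) lower, with a median log2 fold change of 0.25. The smallest adjusted p were those of B2m, the light chain of class I MHC (log2 fold change 0.38, SE 0.069, adjusted p = 0.000261), the chemokine Ccl12 (log2 fold change 1.85, SE 0.37, adjusted p = 0.000734) and the peptide transporter Tap1 (log2 fold change 0.65, SE 0.14, adjusted p = 0.000979). Over all genes, 5.54% were higher and 6.07% lower in this comparison. Without L266 and L291, 8 of the 73 genes were higher and 1 lower, and 5 of the 20 sensing genes were higher and 2 lower.

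Markers of cell types moved with the members in some groups. In bulk tissue more cells of a type cannot be told apart from more RNA per cell. Of 10 microglia markers, 5 were higher in KO under CP2 in the average and 0 lower, among them P2ry12 (log2 fold change 0.40, SE 0.083, adjusted p = 0.00106) and Siglech (log2 fold change 0.41, SE 0.088, adjusted p = 0.00148). In M 6 of 10 were higher, and their summed level was 381 to 501 CPM in KO and 308 to 388 CPM in WT. In F edgeR called 0 of 10, with 2 higher and 1 lower at an unadjusted p under 0.05. The summed level in F was 353 to 488 CPM in KO and 365 to 421 CPM in WT. With this level as a covariate, 9 members were called in the average, where Oasl2 and Ifi27 lost their calls, and 2 (Lgals3bp and Ifit3) in M. The 7 calls lost in M kept positive log2 fold changes, with 0.55 for Ifih1, 0.39 for Ifit2, 0.72 for Ifit3b, 0.49 for Eif2ak2, 0.66 for Bst2, 0.57 for Parp9 and 0.33 for Ifi27. Their adjusted p ran from 0.0647 (Ifih1 and Eif2ak2) to 0.211 (Ifi27). Without L266 and L291, 5 of the 10 markers were higher in the average and 6 in M.

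With vehicle, 0 of the 10 microglia markers were higher in KO and 2 lower in the average, beside the 3 members that were higher. Of 5 red cell markers, 4 were lower, with a median log2 fold change of -1.97. Their summed level was 74.8 to 129 CPM in KO and 85.1 to 387 CPM in WT in F, and 38.6 to 87.4 CPM in KO and 115 to 648 CPM in WT in M. Their part in the members' differences was not tested.

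In the average of KO against WT under CP2, astrocyte markers were higher in 2 of 6. Gfap, raised in reactive astrocytes, was among them (log2 fold change 1.28, SE 0.30, adjusted p = 0.00421). Meningeal markers were higher in 2 of 4 in the same average. Their summed level was 92.1 to 165 CPM in KO CP2 M and 50.1 to 77.9 CPM in WT CP2 M, and their part in the members' differences was not tested. Of 8 T and NK cell markers 3 passed the filter, and edgeR called 0 of these, with 0 at an unadjusted p under 0.05. Gzma and Nkg7 were at 0 in 26 of the 36 libraries each and Ncr1 in 27. The summed level of all 8 T and NK cell markers was 3.27 to 8.76 CPM in KO CP2 M and 4.07 to 7.14 CPM in WT CP2 M. In F this sum was 5.045 to 23.63 CPM in KO CP2 and 4.033 to 19.82 CPM in WT CP2. edgeR called 0 of 8 markers of monocytes, neutrophils and border macrophages, with 1 higher at an unadjusted p under 0.05. Without L266 and L291, edgeR called 1 of 6 astrocyte, 2 of 6 oligodendrocyte and 0 of 6 endothelium markers higher in the average under CP2. At an unadjusted p under 0.05, 3, 4 and 3 of these were higher and 0 lower. Of 4 meningeal markers in the same fit, 2 were called higher and 4 were higher at an unadjusted p under 0.05. The part of oligodendrocyte and endothelium markers in the members' differences was not tested.

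The share of reads outside annotated genes also varied between groups. It was 5.18 to 9.07% in KO CP2 M against 9.05 to 13.2% in WT CP2 M, and 5.83 to 10.97% in KO CP2 F against 5.45 to 7.18% in WT CP2 F. With vehicle it was 6.19 to 11.7% in KO and 5.09 to 7.04% in WT in F, and 11.3 to 13.03% in KO and 9.48 to 11.6% in WT in M. With this share as a covariate, 11 members were called in the average under CP2 and 1 (Lgals3bp) in M, where calls over all genes fell from 2558 to 862. The 8 calls lost in M kept positive log2 fold changes. They were 0.62 for Ifih1 (adjusted p = 0.0526), 0.92 for Bst2 (0.0802), 0.45 for Ifi27 (0.115), 0.64 for Parp9 (0.103), 0.90 for Ifit3 (0.0607), 0.31 for Ifit2 (0.206), 0.75 for Ifit3b (0.137) and 0.50 for Eif2ak2 (0.0852).

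**Figure D5:**
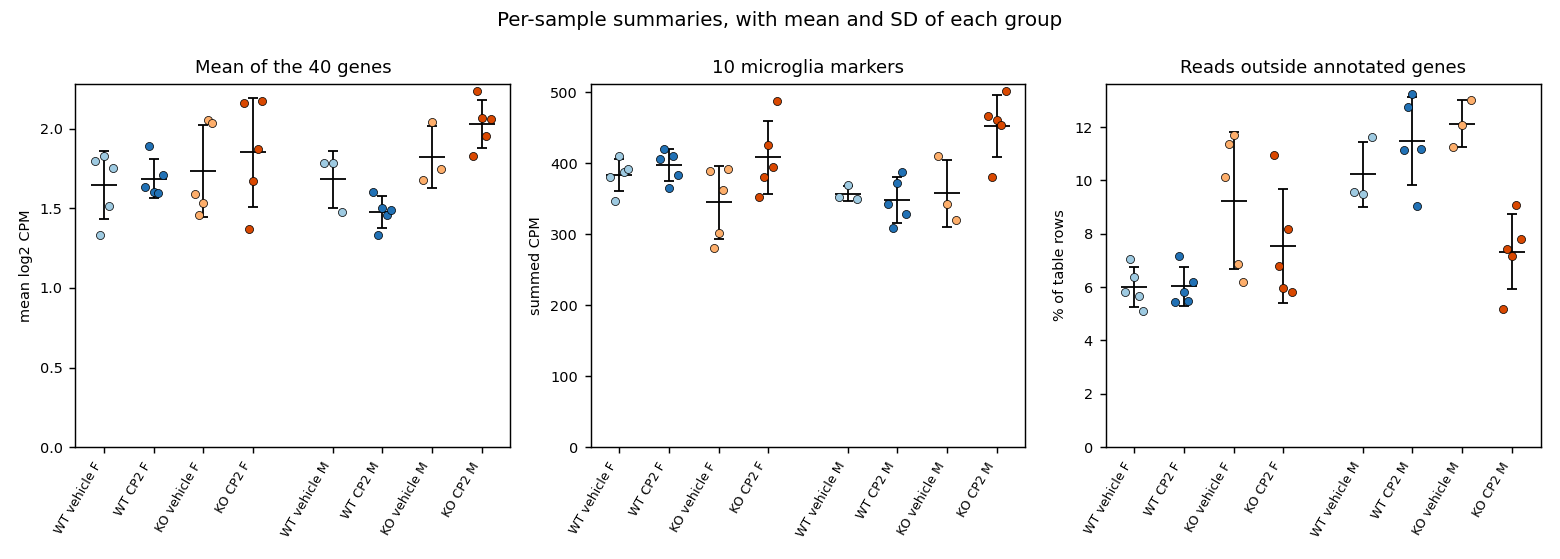
Per-sample values in the 8 groups with mean and SD: mean log2 CPM of the 40 genes (left), summed CPM of 10 microglia markers (middle) and reads outside annotated genes as % of all rows of the count table (right). KO CP2 M is high in the first 2 panels and, at 5.18 to 9.07%, low in the third against WT CP2 M.

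Animals of one group differed from each other across many members at once. In KO CP2 F, L234 was the highest of 5 samples in 18 of 40 genes, L201 in 16, and L216 was the lowest in 21. In KO CP2 M, L291 was highest in 17 and L266 lowest in 18. In KO vehicle F, L283 was highest in 15 and L282 in 14, and in KO vehicle M, L319 was highest in 28 of 40. In WT, L303 was the lowest of WT vehicle M in 26 of 40 and L277 of WT vehicle F in 21, and L240 was the highest of WT CP2 F in 20. Such counts were not made over all genes, so they are not shown to be particular to the members. The mean log2 CPM of the 40 genes ran from 1.37 to 2.18 in KO CP2 F and from 1.59 to 1.89 in WT CP2 F. In M it ran from 1.83 to 2.24 in KO and from 1.33 to 1.60 in WT, with no overlap between these groups.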

How the data were processed

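PolyA RNA of 36 mouse brain samples was measured by sequencing. Reads were aligned and counted with STAR and HTSeq on GRCm39, per the submitters' processing notes; versions, annotation release and strandedness are not given in the sources used here, so overlapping and antisense genes are uncertain. The authors deposited raw counts per Ensembl gene. The 5 summary rows of the table (12.0% to 19.6% of a library) were left out. GENCODE M21 gave symbols for 52073 of 56980 genes, and exon lengths.

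edgeR 4.0.16 under R 4.3.3 gave the fits (TMM factors, filterByExpr on the 8 groups, robust glmQLFit, glmQLFTest). The fit held all 36 samples and 1 coefficient per group. P-values were adjusted by Benjamini-Hochberg over 25601 genes in each contrast, with 0.05 as the threshold for a call. Averages weight F and M equally. The SE is the log2 fold change divided by the root of F. CPM use TMM library sizes; log2 CPM use a prior count of 2. DESeq2 1.42.0 was an alternative, as were other filters, covariates and leaving out each library. The functions were tested on simulated data. Samples were not said to be littermates or to share batches, and p-values measure the spread between these animals. No replicate pair agreed within sampling noise (lowest mean chi-square per gene 13.5).

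The members and lists were chosen with earlier results of these data known. Values in every sample are given for the 8 called members of smallest p in KO against WT under CP2, up to 3 called members of each other contrast, and Irf7, Stat2, Isg15 and Ifit1; of other lists, up to 3 called genes are named, and 1 that the rule would name is not reported here. Helz2, Gzma, Nkg7, Ncr1 and the interferon genes were named after their values were seen.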

Additional observations from a re-analysis of the deposited data

Results flagged for a closer look

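Single samples that stood far from the other 4 of their group were sought by Dixon's criterion in 84 groups of 5 samples, over log2 CPM of the 13 genes with printed values and of the members' mean, and 7 were found. Chance alone marks about 1 in 20 groups. Irf7 in KO CP2 F was lowest in L216, at 1.03 CPM, with the next sample at 3.28 CPM. Ifit1 in KO CP2 M was highest in L291, at 7.10 CPM, with the next at 3.65 CPM. Ifit3 in WT CP2 M was lowest in L262, at 4.54 CPM against 6.45 CPM. Eif2ak2 in WT vehicle F was lowest in L277, at 6.20 CPM against 8.18 CPM. Ifih1 was highest in KO CP2 F sample L234, at 7.32 CPM against 6.18 CPM, and lowest in WT CP2 F sample L272, at 4.19 CPM against 5.46 CPM. Oasl2 in WT CP2 M was highest in L259, at 4.25 CPM against 3.19 CPM.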

How the results depend on the processing

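In the average of KO against WT under CP2, the number of members called stayed between 9 and 14 under 9 other settings and between 9 and 15 on leaving out each library. Ifit3, Lgals3bp, Ifit2, Ifit3b, Eif2ak2, Ifih1 and Rtp4 were called in all of these fits. The median of the members stayed above 0 in 94 of 94 alternatives, from 0.32 to 0.47 in this average, from 0.10 to 0.27 within F, from 0.39 to 0.58 within M and from 0.0755 to 0.25 in the average with vehicle. Within F the count of 3 was 5 with DESeq2 and under a filter on mean CPM of 1 or more, and 1 with only the groups compared (1 to 5 on leaving out a library). Within M the count of 9 was 16 with DESeq2, 18 with only the groups compared, 1 with the share of reads outside genes and 2 with the microglia level as a covariate. With vehicle the average of 3 was 1 without the filter and with the outside share, and 5 with the microglia level (0 to 3 on leaving out a library: 0 without WT L300, 1 without KO L282 or L319 or WT L277, L295, L285 or L303). In F with vehicle the count of 1 was 2 with DESeq2 size factors, a mean CPM of at least 1 and DESeq2, and 0 with the outside share and with only the groups compared (0 to 2 on leaving out a library). The 1 member called for CP2 in KO was 0 with the outside share, title number, microglia level and only the groups compared (0 to 1 on leaving out a library); within M of KO and for the interaction, leaving out a library gave 0 to 1. The log2 fold change of Isg15 under CP2 was -0.12 with the outside share and -0.073 with the microglia level, and -0.15 to 0.12 on leaving out a library; that of Stat2 was -0.023 (without KO L201) to 0.10. Where a fit changed a call, the cause was not tested. Over all genes, calls under CP2 in M ranged from 862 to 4009 around 2558. In F they ranged from 40 to 886 around 511 under other settings, and from 140 to 935 on leaving out a library. No paired analysis was possible because no title number is shared between groups. Depth limits members of low level: the SE under CP2 was 0.47 for Mx1, 0.50 for Zbp1 and 0.46 for Oas2, against 0.080 for Ifit2.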
